A study of Mus musculus with 8 samples.

Results

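Transcripts of 40 genes that build the autophagosome or select its cargo were compared between alveolar macrophages with and without a Cre-mediated deletion of Tfam. The 40 genes were taken by symbol from a table of 12367 listed genes, and 40 of 40 were found, each in 1 row. Of these, 18 act in initiation and membrane growth, 16 in conjugation of the Atg8 proteins, 5 are cargo receptors and 1 acts in fusion with the lysosome. The KO macrophages came from mice homozygous for floxed Tfam with a CD11c-driven Cre (CD11c-Cre Tfam-fl/fl), and the WT macrophages from Tfam-fl/fl mice without Cre. Both groups thus carry the floxed alleles, and no group carries the Cre alone, so Cre and loss of Tfam cannot be told apart. All mice were untreated and 3 weeks old. Lung cells were enriched on CD11c and flow-sorted as CD45+ F4/80+ CD11c+ cells, and polyadenylated RNA was sequenced from 4 KO and 4 WT libraries, each a pool of 3 to 5 male and/or female mice. CD11c is also present on dendritic cells, so the driver is not restricted to alveolar macrophages.

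Autophagy encloses cytoplasm, organelles or aggregates in a double membrane, the autophagosome, which then fuses with a lysosome. The ULK1 kinase complex starts the process, a class III PI3-kinase marks the growing membrane with phosphatidylinositol 3-phosphate, and a ubiquitin-like conjugation system attaches LC3 and GABARAP proteins, the mammalian Atg8 family, to lipid. Receptors such as p62 bind both ubiquitinated cargo and Atg8 proteins and are themselves degraded with the cargo. Tfam packages mitochondrial DNA and acts in its transcription, and damaged mitochondria are among the known cargoes. Messenger RNA levels, as measured here, do not measure autophagic flux.

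Values are the deposited normalised values on a per-million scale. Over the listed genes they summed to 1028525 to 1042689 per KO library and 963386 to 977649 per WT library, without overlap. The part of this difference in small fold changes was not tested beyond the alternatives given below. Depth was 20243772 to 30263201 reads in the listed genes per KO library and 24776683 to 29161957 per WT library, which did not pass a two-sided exact permutation test (p = 0.343). A count of 3 reads corresponds to a value of 0.100 to 0.152, and every mean of the 40 genes lay at 8.17 or above. Tfam itself had values of 3.52 to 5.08 in KO and 26.1 to 35.2 in WT libraries, with no overlap (two-sided exact permutation p = 0.0286, the smallest that 4 against 4 allow). All 14 alveolar macrophage markers were listed, with a summed value of 37012 to 42338 in KO and 36231 to 38988 in WT, and 3 were higher and 6 lower in KO. Chil3 alone held most of that sum (24490 to 30293 in KO, 22376 to 25450 in WT). Fabp1 (11.2 ± 2.50 in KO and 179.6 ± 16.1 in WT), Ear1 (123 ± 39.3 in KO and 845 ± 112 in WT), Ear2 (477 ± 111 in KO and 2245 ± 178 in WT), Krt79 (289.7 ± 40.6 in KO and 612 ± 75.4 in WT) and Siglecf (194 ± 20.9 in KO and 501 ± 37.6 in WT; SD, n = 4) were lower in KO by more than 2 times, and these markers are named after their values were seen. The 3 higher in KO were Itgax, Car4 and Plet1. Itgax was 2050 ± 202 in KO and 1094 ± 48.5 in WT (SD, n = 4). Car4 was 1336 ± 190 in KO and 723 ± 122 in WT, and Plet1 1838 ± 111 in KO and 1502 ± 99.0 in WT. Of 10 markers of interstitial macrophages and monocytes 8 were listed, Ly6c2 and Folr2 were not, 7 were higher in KO, and the summed value was 180.3 to 404 in KO and 94.8 to 143 in WT. Of 6 neutrophil markers 5 were listed and 2 were lower, with sums of 46.1 to 57.4 in KO and 84.0 to 121 in WT. Dendritic cell markers summed to 15.4 to 28.2 in KO and 14.3 to 20.6 in WT (6 of 6 listed, 1 higher). Lung epithelial markers (5 of 6 listed) summed to 68.8 to 104 in KO and 44.8 to 120.3 in WT, and endothelial and fibroblast markers (6 of 6 listed) to 34.4 to 66.8 in KO and 23.1 to 109 in WT, with 0 passing the test in either list, also at an unadjusted limma p under 0.05. One lymphocyte marker of 8 was listed, at 0.436 to 1.14 in KO and 0.769 to 1.47 in WT. The part of these markers in the results was not tested. In a bulk sample, fewer cells of a type and less RNA per cell cannot be told apart.

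Of the 40 genes, 10 rose and 8 fell in KO, and 22 did not pass the test. Values were compared as log2(value + 1) with limma across all 12163 genes that passed a filter on low values, and a gene was called at a Benjamini-Hochberg adjusted p under 0.05. The 40 genes all passed that filter. The 18 called genes are 45.0% of the 40, against 38.7% called over all tested genes. The 10 that rose are 25.0%, against 18.7% called higher over all genes, and the 8 that fell are 20.0%, against 20.0% called lower. These shares lie near the background. The median log2 fold change of the 40 was 0.048, against -0.0063 over all tested genes, and their median size without sign was 0.21, against 0.21.

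**Figure D1:**
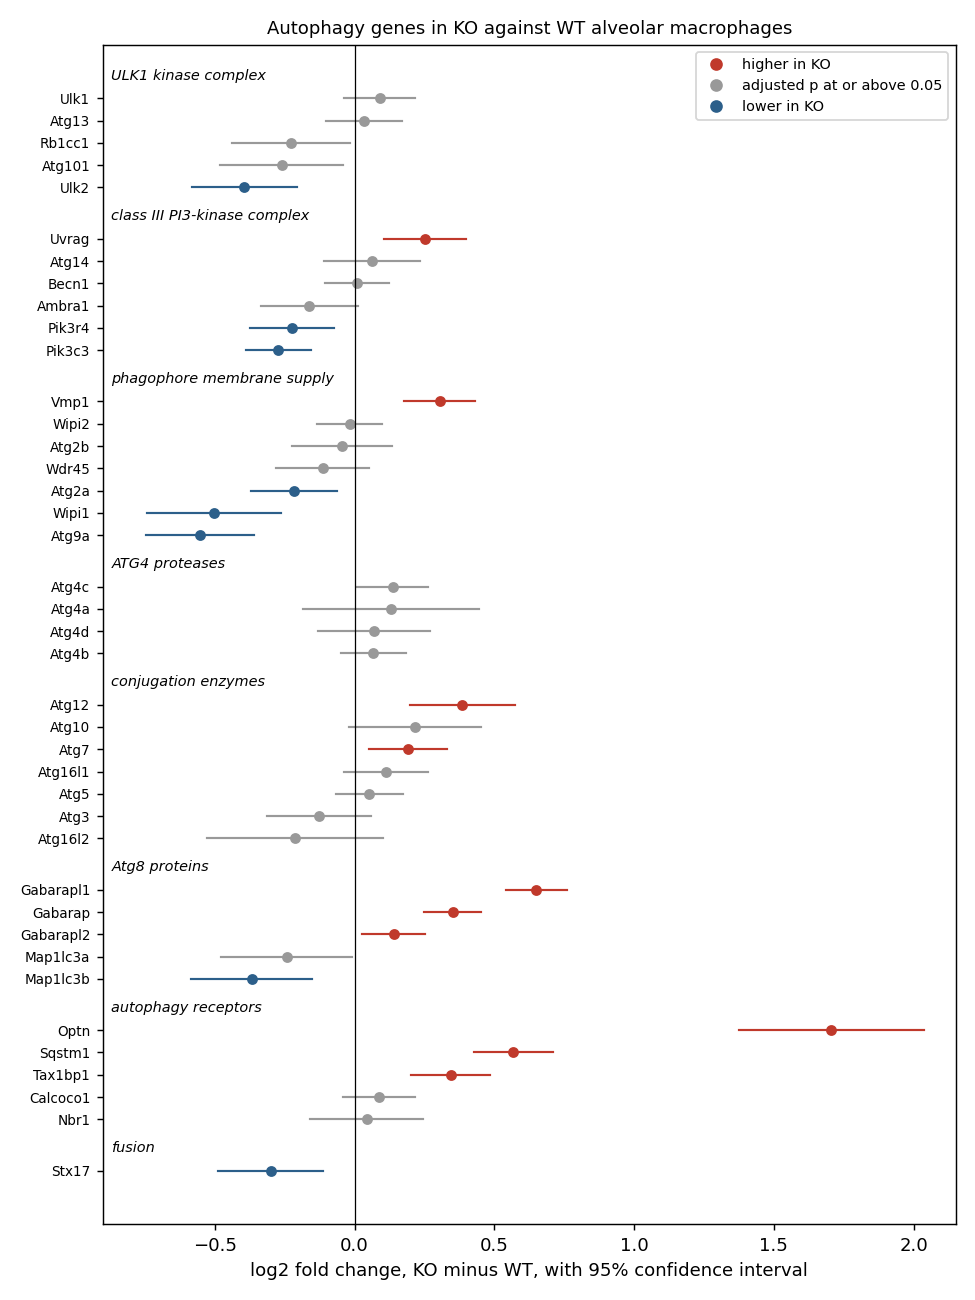
Log2 fold change (KO minus WT, on the log2(value + 1) scale) of each of the 40 genes with its 95% confidence interval from the limma fit, ordered by role. Red points rose in KO, blue points fell and grey points did not pass the test; Optn at 1.71 stands farthest from 0, and -0.55 for Atg9a is the lowest value.

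The separation of libraries gave nearly the same picture. In 10 genes every KO library lay above every WT library (25.0%, against 18.1% of all tested genes), and in 8 every KO library lay below (20.0%, against 19.6%). The 10 were those that rose. Of the 8 that fell, Map1lc3b had overlapping groups, and Atg101 was separated without passing the test.

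**Figure D2:**
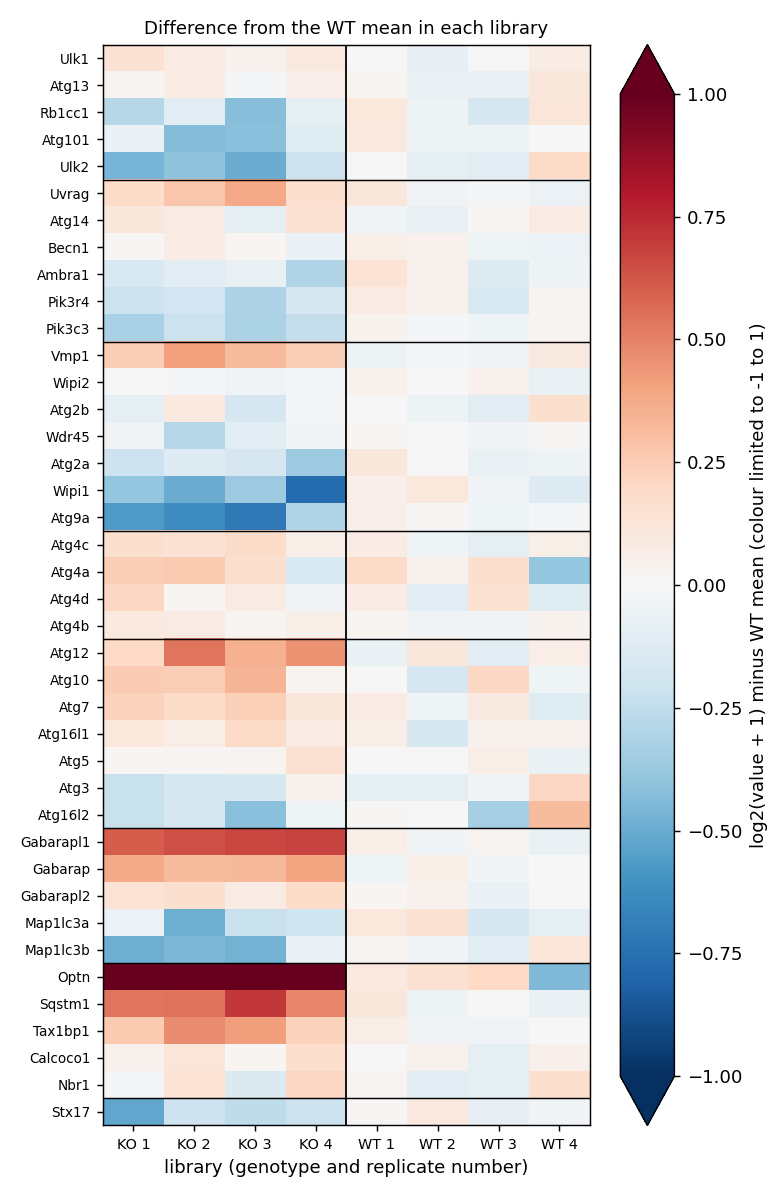
Each cell gives log2(value + 1) in 1 library minus the mean of the 4 WT libraries, for the 40 genes in the same order as in the plot of fold changes; KO libraries stand left of WT libraries and horizontal lines part the roles. Optn is beyond the colour limit of 1 in all 4 KO libraries, and KO replicate 4 is paler than the other KO libraries in Map1lc3b and Atg9a.

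Promoters are printed for the genes with the largest changes, to show the sequence next to their values. Of the 40 genes 34 had a promoter in RefSeq (GRCm38.p6), read 5′ to 3′ on the strand of the gene as the 250 bases before the transcript start. Atg12, Atg16l1, Becn1, Map1lc3a, Pik3c3 and Rb1cc1 had none. Shown are the 4 genes with the largest rise or fall and a promoter from this table, and Tax1bp1, the receptor whose promoter, at 1 of 2 listed starts, matched a searched motif; capitals mark a motif match. RefSeq and GENCODE starts can differ. The Tax1bp1 window, with its motif match, lies wholly inside the GENCODE span of the gene, which starts at 52713729. The Atg9a window, read on its strand, begins outside the GENCODE span of the gene and ends inside it, as that span ends at 75192196. The Gabarapl1 window also runs into its gene, which starts at 129533160, and the Sqstm1 window into its gene, which ends at 50210827.
Optn (chr2:5064118-5064367, minus strand): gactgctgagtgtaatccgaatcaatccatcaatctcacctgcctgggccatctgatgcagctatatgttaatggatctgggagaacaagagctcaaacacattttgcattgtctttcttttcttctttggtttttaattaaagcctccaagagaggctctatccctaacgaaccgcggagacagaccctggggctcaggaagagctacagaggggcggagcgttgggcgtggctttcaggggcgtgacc
Gabarapl1 (chr6:129532942-129533191, plus strand): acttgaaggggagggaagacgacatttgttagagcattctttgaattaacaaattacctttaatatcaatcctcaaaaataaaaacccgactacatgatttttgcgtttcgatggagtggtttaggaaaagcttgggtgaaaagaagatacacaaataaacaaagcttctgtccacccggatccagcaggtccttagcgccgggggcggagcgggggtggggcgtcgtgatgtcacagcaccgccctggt
Sqstm1 (chr11:50210821-50211070, minus strand): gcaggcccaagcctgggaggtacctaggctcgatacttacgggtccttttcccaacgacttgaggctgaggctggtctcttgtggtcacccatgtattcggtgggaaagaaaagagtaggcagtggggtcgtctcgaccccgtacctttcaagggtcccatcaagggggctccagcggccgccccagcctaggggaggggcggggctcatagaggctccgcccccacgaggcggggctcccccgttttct
Atg9a (chr1:75192011-75192260, minus strand): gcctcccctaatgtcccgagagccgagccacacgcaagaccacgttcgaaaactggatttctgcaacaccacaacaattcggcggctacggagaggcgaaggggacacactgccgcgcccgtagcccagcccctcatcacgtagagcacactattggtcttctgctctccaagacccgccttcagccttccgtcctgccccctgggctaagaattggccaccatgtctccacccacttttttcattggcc
Tax1bp1 (chr6:52713915-52714164, plus strand): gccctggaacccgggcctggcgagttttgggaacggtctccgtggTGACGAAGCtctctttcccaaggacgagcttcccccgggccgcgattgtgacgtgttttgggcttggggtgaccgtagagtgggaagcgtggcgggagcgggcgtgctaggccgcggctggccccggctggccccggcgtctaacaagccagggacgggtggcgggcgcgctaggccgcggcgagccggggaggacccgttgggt

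The motifs were searched on both strands of these 250 bases. The core of the CLEAR element bound by TFEB, TCACGTGA, was found in 1 of 34 genes, Atg3, against 0.907% of 27025 genes with a RefSeq promoter and 1.83% of the 9366 of them that the expression table lists. The E-box CACGTG, which the CLEAR core contains, was found in Atg3, Atg5 and Atg7 (8.82%, against 6.86% of all and 10.1% of the genes listed). The element bound by ATF4 and C/EBP factors, TGATGNAA, was found in 0 of 34, against 3.91% of all and 2.45% of the genes listed. The antioxidant response element, TGACNNNGC, was found in Atg13, Tax1bp1, Ulk2 and Vmp1 (11.8%, against 11.5% of all and 14.1% of the genes listed). Of the 9 genes with a promoter that rose, 2 held this last motif and 1 the E-box, and of the 7 that fell, 1 and 0. The E-box among those that rose is that of Atg7, whose window lies wholly inside the GENCODE span of the gene. That span starts at 114643097, and the window at 114670846. No match lay in the windows of Optn, Gabarapl1, Sqstm1 or Atg9a.

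Among the 5 cargo receptors 3 rose and 0 fell, against 18.7% called higher and 20.0% called lower over all tested genes. The counts were also 3 and 0 at an unadjusted limma p under 0.05, for which no all-gene share is given. The median log2 fold change of the 5 was 0.34. Optn encodes optineurin, a receptor for ubiquitinated mitochondria, bacteria and aggregates, and it changed most of the 40 genes. It had values of 36.6, 45.1, 42.7 and 34.8 in KO replicates 1 to 4, against 12.3, 12.8, 13.3 and 8.15 in WT replicates 1 to 4. Every KO library was more than 2 times the highest WT library, and WT replicate 4 was the lowest of all 8. The mean was 3.42 times the WT mean (log2 fold change 1.71 with SE 0.15, adjusted p = 2.56e-05 by limma). The gene (ENSMUSG00000026672) lies on chromosome 2, 5020642 to 5064051 in GRCm38.

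Sqstm1 encodes p62, a receptor that also gathers ubiquitinated proteins into condensates. Its values were 581, 583, 656 and 564 in KO, against 434, 388, 402 and 383 in WT replicates 1 to 4. The groups were far apart, with KO replicate 3 highest, and the KO mean was 1.48 times the WT mean (log2 fold change 0.57 with SE 0.063, adjusted p = 0.000103 by limma). Sqstm1 (ENSMUSG00000015837, chromosome 11, 50199366 to 50210827) shares 580 exonic bases, 17.3% of its exons, with Mrnip on the opposite strand. Mrnip was listed at 1.31 to 3.28 in KO and 1.02 to 3.06 in WT, far below Sqstm1. Without a stated strand setting, reads of genes that overlap in this way cannot be told apart.

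Tax1bp1, a receptor that recruits the initiation machinery to ubiquitinated cargo, had values of 313, 363, 349 and 307 in KO, against 274, 256, 255 and 262 in WT replicates 1 to 4. KO replicates 1 and 4 lay closest to the WT range but above it (log2 fold change 0.34 with SE 0.063, adjusted p = 0.00203 by limma). Nbr1, which acts beside p62 in aggregate clearance, was 119.7 ± 13.2 in KO and 116 ± 10.5 in WT (SD, n = 4), with a 95% confidence interval of the log2 fold change of -0.16 to 0.25. Calcoco1, a receptor for endoplasmic reticulum and Golgi membranes, was 54.98 ± 2.70 in KO and 51.7 ± 2.27 in WT, with an interval of -0.042 to 0.22. Neither passed the test. The ratio of Optn to Sqstm1 within a library was 0.0617 to 0.0774 in KO and 0.0213 to 0.0331 in WT, given as a description with no test.

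**Figure D3:**
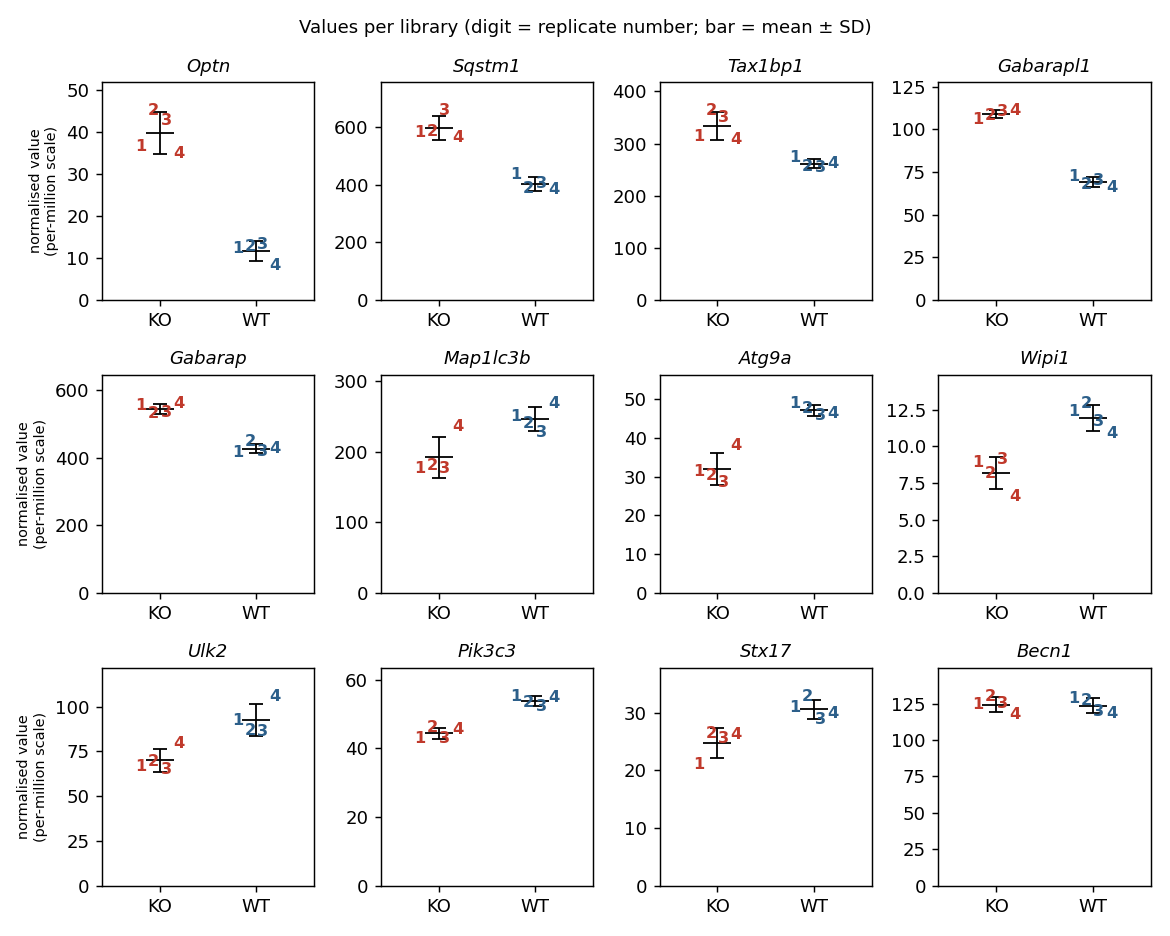
Normalised value (per-million scale, linear axes from 0) of 12 genes in each library, KO left of WT; digits are replicate numbers, and bars give the mean and SD of 4 libraries. Groups do not overlap for the genes shown except Map1lc3b, where KO replicate 4 (235.1) lies above WT replicate 3 (227.7), and Becn1.

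The 5 Atg8 genes were split, and 18.7% were called higher and 20.0% called lower over all tested genes. The 3 genes of the GABARAP branch rose, Gabarapl2 only narrowly. Of the 2 LC3 genes 1 fell, and the other did not pass the test in the fit without library weights. Gabarapl1, a close relative of Gabarap, had values of 106, 108, 110.2 and 111 in KO, against 72.2, 67.7, 70.1 and 65.6 in WT replicates 1 to 4. Both groups were tight, and the difference was many times their spread (log2 fold change 0.65 with SE 0.049, adjusted p = 1.11e-05 by limma). Gabarap, the most abundant of the family, had 555, 532, 534 and 561 in KO, against 415, 448, 419 and 428 in WT replicates 1 to 4 (log2 fold change 0.35 with SE 0.046, adjusted p = 0.000256 by limma). No KO library came near the WT range. Gabarapl2 had 64.5, 65.6, 61.9 and 66.5 in KO, against 59.3, 60.2, 55.9 and 58.8 in WT replicates 1 to 4. Its small difference only just passed (log2 fold change 0.14 with SE 0.05, adjusted p = 0.0499 by limma) and was lost whichever of the 8 libraries was left out.

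Map1lc3b, the LC3 gene whose protein is the usual marker of autophagosomes, fell. It had 176, 180.2, 177 and 235 in KO, against 250.3, 240.1, 228 and 268 in WT replicates 1 to 4. KO replicates 1 to 3 lay well under the WT range, and KO replicate 4 lay inside it (log2 fold change -0.37 with SE 0.097, adjusted p = 0.0137 by limma). Without KO replicate 4 the log2 fold change was -0.47. Map1lc3a was 27.1 ± 3.38 in KO and 32.3 ± 3.42 in WT (SD, n = 4; log2 fold change -0.24, adjusted p = 0.0964 by limma), with an interval of -0.48 to -0.0076. With library quality weights it was called lower (adjusted p = 0.0359 by limma). Map1lc3b and Gabarapl2 have processed pseudogenes, 4 and 3 of them with at least 95% identity over 200 bases or more, none listed in the table. Their own values are therefore less certain than those of Gabarap and Gabarapl1, for which no such copy was found outside their own locus. Gabarapl1 shares 28.3% of its exonic bases with 1700101I11Rik on the opposite strand, which was not listed.

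The ratio of Gabarap to Map1lc3b within a library was 2.39 to 3.16 in KO and 1.596 to 1.86 in WT. That of Gabarapl1 to Map1lc3b was 0.472 to 0.624 in KO and 0.245 to 0.308 in WT. Levels of different genes were set side by side per kilobase of the principal transcript. That scale is rough, as gene totals do not separate isoforms. On it Gabarap made up 67.1% ± 1.07 of the summed Atg8 level in KO and 61.4% ± 1.17 in WT (SD, n = 4). Map1lc3b made up 12.6% ± 1.43 in KO and 18.9% ± 1.16 in WT, and Gabarapl1 9.93% ± 0.369 in KO and 7.35% ± 0.451 in WT. These ratios and shares are given as descriptions of the same values and were not tested. The summed value of the 5 genes was 908.5 to 1001 in KO and 802 to 851 in WT.

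**Figure D4:**
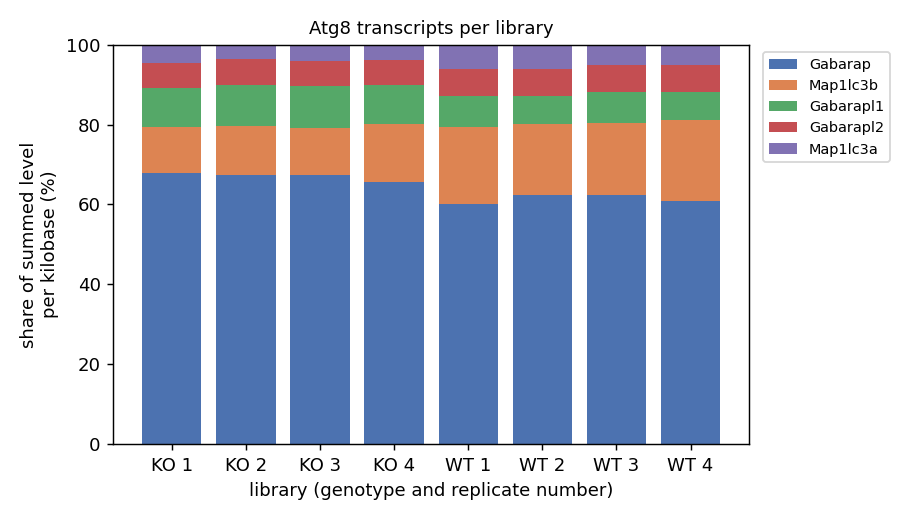
Share of each of the 5 Atg8 genes in their summed level per kilobase of principal transcript (percent, linear axis from 0 to 100), 1 bar per library with KO left of WT. The Map1lc3b share lies between 11.5% and 14.7% in KO libraries and between 17.8% and 20.3% in WT libraries, and Gabarap holds the largest share in all 8.

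Among the 7 conjugation enzymes and E3 components 2 rose and 0 fell, against 18.7% called higher and 20.0% called lower over all tested genes. The counts were also 2 and 0 at an unadjusted limma p under 0.05, for which no all-gene share is given. Atg12, the ubiquitin-like protein joined to Atg5, had 45.1, 57.1, 50.3 and 53.6 in KO, against 37.3, 42.4, 36.0 and 40.9 in WT replicates 1 to 4. The lowest KO library, replicate 1, stood only just above the highest WT library (log2 fold change 0.39 with SE 0.084, adjusted p = 0.00531 by limma). Atg7, the E1 enzyme that activates both Atg12 and Atg8 proteins, had 110.5, 106, 111 and 101 in KO, against 99.1, 91.0, 99.6 and 86.0 in WT replicates 1 to 4. Its groups were separated by a small gap (log2 fold change 0.19 with SE 0.062, adjusted p = 0.0336 by limma), and the call was lost when KO replicate 1, 2 or 3 was left out, or WT replicate 2 or 4.

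Atg5, the partner of Atg12, had 96.7, 96.0, 96.8 and 106 in KO, against 94.9, 95.4, 99.7 and 90.9 in WT replicates 1 to 4. The groups overlapped, and the interval of the log2 fold change was -0.066 to 0.17. The E2 enzymes also stayed above the threshold, Atg3 at -0.13 and Atg10 at 0.21 (log2 fold change, limma adjusted p = 0.263 and 0.138). With the replicate number as a block Atg3 was called lower (limma adjusted p = 0.0478). Atg16l1, which directs the conjugate to the membrane, was 36.8 ± 1.45 in KO and 34.0 ± 2.48 in WT, and its paralogue Atg16l2 was 8.17 ± 0.961 in KO and 9.72 ± 1.96 in WT (SD, n = 4). Of the 4 ATG4 proteases, which trim and recycle Atg8 proteins, 0 passed the limma test and 1, Atg4c, had an unadjusted p under 0.05 and was called higher with library quality weights (adjusted p = 0.0182) and without both libraries numbered 4 (adjusted p = 0.0334); their log2 fold changes lay between 0.066 for Atg4b and 0.14 for Atg4c. Atg4a has a copy, Atg4a-ps, with 99.3% identity over 2115 bases that was not listed, so its value is uncertain. Atg4d (17.2 ± 1.34 in KO and 16.3 ± 1.62 in WT; SD, n = 4) shares 1405 exonic bases, 19.3% of its exons, with Kri1 on the opposite strand. Kri1 was higher than Atg4d in every library, at 39.2 to 49.6 in KO and 30.0 to 39.4 in WT, and was itself called higher in KO (log2 fold change 0.37, adjusted p = 0.0145 by limma), so the value of Atg4d is uncertain too.

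In the group that supplies and shapes the growing membrane 3 of 7 fell and 1 rose, against 20.0% called lower and 18.7% called higher over all tested genes. Atg9a, a lipid scramblase on the vesicles that seed the membrane, had the largest fall of the 40 genes. Its values were 31.4, 30.2, 28.4 and 38.0 in KO, against 48.9, 47.6, 45.7 and 46.4 in WT replicates 1 to 4. The WT libraries were tight, and KO replicate 4 was nearer to them than the other KO libraries (log2 fold change -0.55 with SE 0.086, adjusted p = 0.00078 by limma). Atg9a (ENSMUSG00000033124) lies on chromosome 1, 75180860 to 75192196, and the transcript Gm29253, not listed, shares 31.8% of its exonic bases on the same strand.

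Wipi1, which binds phosphatidylinositol 3-phosphate on the membrane, had 8.87, 8.17, 9.07 and 6.59 in KO, against 12.4, 12.9, 11.7 and 10.8 in WT replicates 1 to 4. KO replicate 4 was the lowest library, opposite to its place in Atg9a, and the groups did not overlap (log2 fold change -0.50 with SE 0.11, adjusted p = 0.00468 by limma). Its relatives Wipi2 and Wdr45 had intervals of -0.13 to 0.1 and -0.28 to 0.052 and did not pass. Wdr45 shares 24.7% of its exonic bases with Gm45208 on the same strand, which was not listed. Atg2a, which transfers lipid into the membrane, had 48.4, 51.2, 49.6 and 43.3 in KO, against 60.6, 56.0, 53.3 and 54.1 in WT replicates 1 to 4 (log2 fold change -0.22 with SE 0.068, adjusted p = 0.0311 by limma). That call was lost under median centring (adjusted p = 0.0552) and when KO replicate 1, 3 or 4 was left out, or WT replicate 1 or 2. Its paralogue Atg2b was 40.9 ± 3.28 in KO and 42.3 ± 3.63 in WT (SD, n = 4).

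Vmp1, a scramblase of the endoplasmic reticulum, was the one gene of this group that rose. It had 85.9, 96.4, 90.2 and 86.2 in KO, against 70.0, 71.5, 71.0 and 76.9 in WT replicates 1 to 4. The highest WT library, replicate 4, stayed under every KO library (log2 fold change 0.31 with SE 0.057, adjusted p = 0.00219 by limma). An exon of Vmp1 holds the precursor of microRNA Mir21a on the same strand, which was not listed.

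The class III PI3-kinase complex had 2 genes that fell and 1 that rose among 6, against 20.0% called lower and 18.7% called higher over all tested genes. Pik3c3, its catalytic subunit Vps34, had 42.8, 46.2, 43.0 and 45.4 in KO, against 55.1, 53.3, 52.1 and 54.7 in WT replicates 1 to 4. Both groups were tight and did not overlap (log2 fold change -0.27 with SE 0.052, adjusted p = 0.00247 by limma). Pik3r4, the regulatory subunit Vps15 that Vps34 needs, had 33.1, 33.7, 31.0 and 34.1 in KO, against 40.8, 39.9, 34.6 and 39.4 in WT replicates 1 to 4. KO replicate 4 and WT replicate 3 nearly touched (log2 fold change -0.22 with SE 0.067, adjusted p = 0.0255 by limma), and the call was lost when KO replicate 1 or 3 was left out, or WT replicate 1 or 2.

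Uvrag, the subunit of the endosomal form of the complex, had 62.6, 67.2, 71.9 and 62.0 in KO, against 59.6, 53.7, 54.5 and 52.9 in WT replicates 1 to 4. Every KO library was higher than every WT library (log2 fold change 0.25 with SE 0.065, adjusted p = 0.0129 by limma). A stretch of its transcript matched transcripts of 15 other genes at 95% identity or more over 200 bases, so reads there can be shared. Atg14, which takes the place of Uvrag in the autophagy-specific form, was 18.3 ± 1.42 in KO and 17.5 ± 0.893 in WT (SD, n = 4), with an interval of -0.11 to 0.23. Becn1, the Beclin 1 scaffold common to both forms, had 124, 129.9, 125 and 118 in KO, against 128, 127, 119.8 and 118 in WT replicates 1 to 4. The groups overlapped throughout, with an interval of -0.11 to 0.12. Becn1 shares 43.9% of its exonic bases with Cntd1 on the opposite strand, which was listed at 1.002 to 1.31 in KO and 0.550 to 1.95 in WT. Ambra1, a regulator of Beclin 1, was 33.6 ± 2.32 in KO and 37.7 ± 3.14 in WT (SD, n = 4) and did not pass.

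Of the 5 genes of the ULK1 kinase complex 1 fell and 0 rose, against 20.0% called lower and 18.7% called higher over all tested genes. At an unadjusted limma p under 0.05, 3 were lower and 0 higher, and no all-gene share is given for that threshold. The kinase Ulk2 had 66.7, 69.5, 65.0 and 79.3 in KO, against 92.0, 86.6, 85.8 and 106 in WT replicates 1 to 4. The replicate 4 libraries were the highest of their groups, and the groups did not overlap (log2 fold change -0.39 with SE 0.084, adjusted p = 0.00484 by limma). Its paralogue Ulk1 had 36.9, 35.3, 34.3 and 35.6 in KO, against 33.4, 31.4, 33.5 and 35.2 in WT replicates 1 to 4, with overlap and an interval of -0.039 to 0.22.

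The subunit Atg101, a stabiliser of Atg13, had 22.9, 17.5, 17.7 and 21.9 in KO, against 25.7, 23.1, 23.2 and 24.1 in WT replicates 1 to 4. The groups did not overlap, and the test missed the threshold (log2 fold change -0.26 with SE 0.098, adjusted p = 0.0604 by limma). With the replicate number as a block it was called lower (limma adjusted p = 0.0183), as was the scaffold Rb1cc1, known as FIP200 (limma adjusted p = 0.0849 without and 0.0186 with the block). Rb1cc1 was 56.5 ± 6.25 in KO and 66.2 ± 6.36 in WT (SD, n = 4). Atg13, the adaptor subunit, was 39.3 ± 0.998 in KO and 38.4 ± 2.45 in WT, with an interval of -0.10 to 0.17.

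The SNARE Stx17, which is recruited to the closed autophagosome and drives its fusion with the lysosome, fell. It had 21.0, 26.4, 25.4 and 26.2 in KO, against 30.8, 32.8, 28.9 and 29.9 in WT replicates 1 to 4. KO replicate 1 was the lowest, and the highest KO library stayed below the lowest WT library (log2 fold change -0.30 with SE 0.084, adjusted p = 0.018 by limma). The call was lost without WT replicate 2, with an adjusted p of 0.0563.

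For the 22 genes that did not pass, log2 fold changes lay between -0.26 for Atg101 and 0.21 for Atg10. The 95% confidence intervals of 21 of them lay within 0.5 log2 units of 0, and that of Atg16l2 reached -0.53. In 4 of the 22 (Atg101, Map1lc3a, Rb1cc1 and Atg4c) the interval left out 0, so the unadjusted p was under 0.05. Levels per kilobase of principal transcript ranged widely among the 40 genes. Gabarap (404 in KO, 316 in WT) and Sqstm1 (293 in KO, 197 in WT) were the highest, and Atg16l2 (1.27 in KO, 1.51 in WT) was the lowest. Optn, at 15.2 in KO and 4.45 in WT, remained the lowest of the 5 receptors on this scale in both groups.

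Further genes of the pathway were read from lists of other components, to be set against 18.7% called higher and 20.0% called lower over all tested genes. Of 16 genes of initiation and membrane supply 3 rose and 1 fell. The adaptor Wdfy3, known as ALFY, was 185 ± 22.8 in KO and 246 ± 12.4 in WT (log2 fold change -0.42, adjusted p = 0.00383 by limma; SD, n = 4 for these lists). Sh3glb1, a Uvrag partner that bends membranes, was 500.1 ± 13.5 in KO and 439 ± 14.6 in WT (log2 fold change 0.19, adjusted p = 0.00921 by limma). The sorting nexin Snx18 was 75.5 ± 3.41 in KO and 59.5 ± 9.17 in WT (log2 fold change 0.35, adjusted p = 0.0182 by limma). Of 17 listed genes in a list of 18 other selective receptors 4 rose and 3 fell, and Calcoco2 was not listed. Wdfy3 belongs to this list too and is counted as fallen in both. Stbd1, which binds glycogen, was 14.5 ± 1.498 in KO and 3.00 ± 0.385 in WT (log2 fold change 1.95, adjusted p = 2.35e-06 by limma). Tollip, which binds ubiquitin, was 146 ± 5.23 in KO and 116 ± 6.01 in WT (log2 fold change 0.33, adjusted p = 0.000951 by limma). The mitophagy receptor Bnip3 was 23.0 ± 2.00 in KO and 33.7 ± 3.61 in WT (log2 fold change -0.53, adjusted p = 0.00142 by limma).

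Of 19 genes of tethering and fusion with lysosomes 9 rose and 2 fell. The lysosomal GTPase Arl8b was 306 ± 15.2 in KO and 188 ± 6.95 in WT (log2 fold change 0.70, adjusted p = 1.04e-05 by limma). The endosomal SNARE Stx7 was 352 ± 2.25 in KO and 244 ± 7.05 in WT (log2 fold change 0.53, adjusted p = 1.52e-05 by limma). The late endosomal GTPase Rab7 was 539.6 ± 6.69 in KO and 398 ± 4.71 in WT (log2 fold change 0.44, adjusted p = 3.29e-05 by limma). The 2 that fell were the SNAREs Ykt6 (82.6 ± 1.64 in KO and 92.8 ± 2.41 in WT; log2 fold change -0.17, adjusted p = 0.0154 by limma) and Vamp7 (36.6 ± 2.22 in KO and 43.4 ± 3.84 in WT; log2 fold change -0.24, adjusted p = 0.0304 by limma), named after their values were seen. Of 8 transcription factors known to act on autophagy genes 4 rose and 0 fell, and at an unadjusted limma p under 0.05 6 were higher and 0 lower. The all-gene shares of 18.7% and 20.0% are for adjusted p, and none is given for the unadjusted count. Ddit3 (CHOP) was 24.5 ± 8.41 in KO and 6.49 ± 0.766 in WT (log2 fold change 1.71, adjusted p = 0.000207 by limma). Atf4, a factor of the integrated stress response, was 277 ± 49.5 in KO and 142 ± 13.6 in WT (log2 fold change 0.95, adjusted p = 0.000276 by limma). Foxo3 was 68.8 ± 8.72 in KO and 51.5 ± 5.69 in WT (log2 fold change 0.41, adjusted p = 0.0134 by limma). Their part in the changes of the 40 genes was not tested.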

How the data were processed

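The samples are 8 RNA-seq libraries, 4 KO and 4 WT, grouped and numbered from their titles. A directional kit was used for the libraries after DNase digestion, per the labels' protocols. GRCm38 is the build, and RSEM 1.3.1, cutadapt 1.7.1, CASAVA 1.8.2 and limma the tools, that the submitters' processing notes list. Which aligner, annotation and strand setting went with them is not given in the sources used here. As deposited by the authors, the values are a normalised signal per gene and library. In each column 100% of values are odd multiples of the smallest (tolerance 0.01), the form of a read number plus 0.5 on a scaled per-million basis. No source states this form, and the columns hold too few low values to settle it, so no count test was run. The depths, the value of 3 reads and the weights of 1 alternative rest on read numbers taken from this spacing. The value given for 3 reads covers counting error only.

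A gene was tested where 4 or more libraries reached a value of 1 (12163 of 12367 rows). The test was two-sided, by limma 3.58.1 in R 4.3.3 on log2(value + 1), with the variance allowed to follow the mean level, and p-values were adjusted over all tested genes (Benjamini-Hochberg). The fold change on this scale understates changes of low genes. The steps were also run on simulated data. The simulated libraries were independent of each other, unlike the pairing read from these data, so that run cannot vouch for the fit here. The genes, lists, roles and motifs were chosen with earlier results of these data known. Each of the 40 genes is described, with values per library for the called ones and for the best known gene of each role, and of each further list up to 3 called genes with the smallest adjusted p. Lengths and overlaps come from GENCODE M21 (GRCm38; the APPRIS principal transcript), and copies from BLAST 2.17.0.

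Same-numbered KO and WT libraries deviated together from their group means (correlations 0.363, 0.286, 0.394 and 0.431, against -0.374 to 0.0917 for other pairs), a pairing read from the data. Blocking on that number was one alternative. The second principal component (12.8% of variance) set KO and WT replicate 4 apart from the other libraries.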

Additional observations from a re-analysis of the deposited data

Results flagged for a closer look

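In 4 of 80 sets of 4 libraries (40 genes, each in KO and in WT) 1 library stood far from the other 3, by a gap to its nearest neighbour over Dixon's critical share of the whole range. Chance flags about 1 in 20 such sets. Map1lc3b was 235.1 in KO replicate 4, with the next KO library at 180.2. Atg5, the partner of Atg12 in conjugation, was 106.1 in KO replicate 4, with the next at 96.8. Stx17 was 20.97 in KO replicate 1, with the next at 25.4. Atg16l1 was 30.35 in WT replicate 2, with the next at 35.0. Causes were not tested.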

How the results depend on the processing

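Each of 20 alternatives kept the direction of all 18 called genes, and 11 of them (Optn, Sqstm1, Tax1bp1, Gabarapl1, Gabarap, Atg12, Vmp1, Atg9a, Wipi1, Ulk2 and Pik3c3) passed under every one; of the other 7, Uvrag and Map1lc3b failed only at an adjusted p of 0.01. Genes that rose numbered 7 at that threshold and 8 to 11 otherwise, against 10. Genes that fell numbered 4 at an adjusted p of 0.01 and 5 to 9 when single libraries were left out (5 without WT replicate 2), against 8. The share called either way over all tested genes was 25.1% at an adjusted p of 0.01, against 38.7%. It was 31.8% to 39.1% when single libraries were left out. With the replicate number as a block 10 rose and 11 fell, the added ones being Rb1cc1, Atg101 and Atg3, and no called gene was lost. Calls over all tested genes also grew with the block, to 46.7%, and with library quality weights, to 46.2%, against 38.7%. With library quality weights 11 rose and 11 fell, Atg4c and Atg10 being added to those that rose, Gabarapl2 lost, and Rb1cc1, Atg101 and Map1lc3a added to those that fell (adjusted p = 0.0373 for Atg10). Without both libraries numbered 4, 10 rose and 8 fell, with Atg4c gained and Gabarapl2 lost, and 41% of all tested genes were called. Gabarapl2 passed in 6 of 20 alternatives and Atg2a and Atg7 in 13 each. The log2 fold change turned its sign in 5 genes near 0 that did not pass: Becn1 ranged from -0.01269 to 0.0346 when single libraries were left out, Atg2b from -0.092 to 0.009540 and Nbr1 from -0.01197 to 0.107. Wipi2 was 0.006663 under quantile normalisation and 0.005760 under median centring. Without both libraries numbered 4, Atg2b was 0.001453 and Atg5 -0.002384. The cause of these shifts was not tested. Pools number 4 a group, reads shared with pseudogenes limit Map1lc3b, Gabarapl2 and Atg4a, and gene totals do not separate isoforms.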
